A study of Homo sapiens with 27 samples.

Results

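Histone demethylases of the KDM series, histone deacetylases of the HDAC series and NAD-dependent deacylases of the SIRT series were followed in A375 cells, an established melanoma line of human origin that carries activated BRAF. The rule for inclusion was the name: every protein-coding gene whose GENCODE symbol begins with KDM, HDAC or SIRT and goes on with a number. This gave 38 genes, of which 1 is not analysed here, and the 37 members among the 58721 genes of the table were 19 KDM, 11 HDAC and 7 SIRT genes. RNA was sequenced from 27 libraries in 9 groups of 3, which crossed 3 kinds of cells with 3 treatments of 24 h in DMEM with 10% FBS. Control cells carried a guide RNA against GFP, a gene that human cells lack, and their genotype is given as WT. The other cells carried guide 1 or guide 2 against TADA2B and are labelled as its knockout. Each kind of cell received DMSO, the solvent, or 20 nM trametinib, which blocks the kinase MEK, or 1 µM vemurafenib, which blocks the mutated BRAF kinase upstream of MEK. The labels do not say if a guide's cells were 1 clone or a pool, nor if libraries of the same group were grown apart, so p-values measure only how much these libraries scatter, and that scatter may be technical.

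The KDM enzymes remove methyl groups from lysines of histone tails: KDM1A and KDM1B with a flavin cofactor, the others through a JmjC domain that uses iron and 2-oxoglutarate. HDAC1 to HDAC11 are zinc-dependent, whereas the sirtuins consume NAD+ and release nicotinamide. Several members work mainly inside larger corepressors, among them NuRD, SIN3, CoREST and NCoR/SMRT, and in melanoma KDM1A, KDM5B and the HDACs have been studied as factors of slow-cycling and drug-tolerant states. TADA2B is an adaptor subunit of SAGA, a complex with the histone acetyltransferase KAT2A or KAT2B, whose mark the deacetylases take off.

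Library totals lay between 67502300 and 92513726 counts. TADA2B RNA itself was present in every group. In DMSO it reached 31.2 ± 0.931 counts per 1000000 (CPM) in control cells, 30.4 ± 0.773 in guide 1 cells and 28.6 ± 1.21 in guide 2 cells (SD, n = 3). In trametinib it was at 84.5% (guide 1) and 71.0% (guide 2) of the control level, and in vemurafenib at 74.4% and 65.1%, and the RNA level is no check of the protein. Of 8 melanocyte lineage genes, SOX10, MITF and S100B were expressed in control cells in DMSO. PMEL was at 1.27 CPM there, and TYR, MLANA, TYRP1 and DCT lay under 1 CPM. All 8 MAPK output genes and all 8 proliferation genes fell with both drugs in control cells. Of 6 keratinocyte markers, KRT1 and DSG3 were at 0 in control cells in DMSO, KRT5 and TP63 lay under 1 CPM, and KRT10 (46.4 CPM) and KRT14 (8.99 CPM) made up nearly all of a sum of 53.4 to 58.5 CPM. In the same libraries 6 fibroblast markers summed to 32.8 to 33.9 CPM, led by PDGFRB, 6 leukocyte markers to 17.0 to 17.3 CPM, led by LYZ, and 4 endothelial markers to 16.1 to 16.6 CPM, led by KDR. Guide 2 vemurafenib library 3 stood farthest from its mates, at 11.9 and 8.11 by the chi-square statistic over its degrees of freedom, against 3.41 between those mates.

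Per kilobase of exon, HDAC1 was the most abundant member in control cells in DMSO, at 70.6 ± 1.71 RPKM (CPM per kilobase; SD, n = 3), followed by KDM1A at 58.5 ± 1.57 RPKM. HDAC1 is a class I deacetylase and KDM1A, also known as LSD1, takes mono- and dimethyl marks off histone H3 lysine 4 (H3K4), and both are catalytic subunits of CoREST. Next came the H3K4 trimethyl demethylase KDM5C (26.1 ± 0.0318 RPKM), the H3K9 demethylase KDM3B (20.1 ± 0.456) and HDAC3 (16.6 ± 0.177), the catalytic subunit of NCoR/SMRT. Among sirtuins, SIRT6 (8.79 ± 0.628) and SIRT1 (8.22 ± 0.314) were highest on this scale and did not differ beyond their spread. The lowest members with a test were HDAC8 (0.725 ± 0.0102 RPKM), HDAC9 (0.700 ± 0.0269) and HDAC10 (0.548 ± 0.0231). The mean of HDAC8 lay within the SD of HDAC9, but that of HDAC9 lay outside the SD of HDAC8. The scale divides by all annotated exon bases of a gene, so the order depends on that length. It was 22986 bases for HDAC8, 16827 for HDAC9 and 25882 for KDM5B, against 3963 for HDAC1. In plain CPM, averaged over all 27 libraries, HDAC8 (15.4) lay above HDAC10 (5.11), KDM8 (5.04), KDM4D (2.60) and SIRT4 (2.41).

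**Figure D1:**
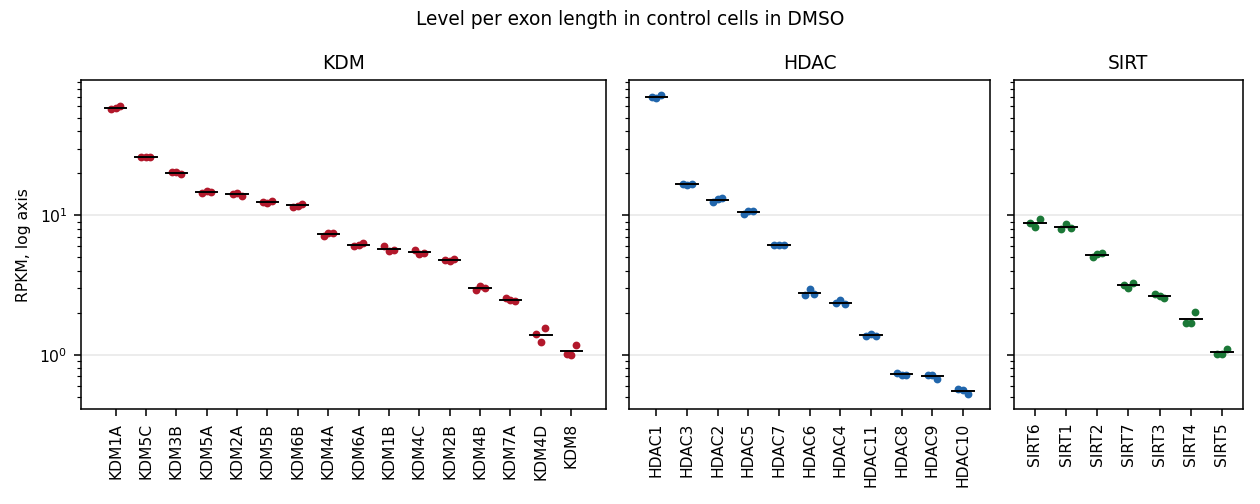
Level per exon length (RPKM, log axis) of the 34 tested members in control cells in DMSO, by gene family; points are the 3 libraries and lines their mean. HDAC1 and KDM1A stand above all others, at 70.6 and 58.5 RPKM, and the sirtuins span 1.04 to 8.79 RPKM.

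Of the 37 members, 34 passed the filter on low counts and were tested. The other 3 were almost silent: KDM4E had 69 reads over all 27 libraries, KDM4F had 18 and KDM5D, the Y-linked relative of KDM5C, had 2. KDM4E and KDM4F had 0 reads in all 3 control libraries in DMSO, and no fold change is given for them. Across the 9 groups, 15 of the 34 tested members moved by less than 1.5-fold between their lowest and highest group, 10 moved by 2-fold or more, and the median range was 1.60-fold. HDAC9 had by far the widest range, from 4.90 CPM with guide 2 in DMSO to 51.8 CPM in control cells in trametinib, 10.6-fold, ahead of HDAC5 at 2.55-fold.

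Both drugs raised most members in control cells. Trametinib raised 23 and lowered 6 of 34, with a median log2 fold change of 0.35 against 0.06 over all genes, where 69.0% of 25199 genes tested were called (36.4% higher and 32.5% lower). Vemurafenib raised 23 and lowered 5, with a median of 0.24 against 0.06, beside 67.3% of all genes called (35.7% higher and 31.6% lower). A gene was called when edgeR's quasi-likelihood test gave a p under 0.05 after Benjamini-Hochberg adjustment over all genes, and all adjusted p-values here come from that test. Both comparisons share the 3 control libraries in DMSO, so each drug's values are given side by side. Of the 29 calls in trametinib 3 reached 2-fold, where 29.6% of all genes tested were called at 2-fold or more. Proliferation genes fell together with these changes, their summed level going from 2486 to 2510 CPM in DMSO to 325 to 338 CPM in trametinib and 370 to 376 CPM in vemurafenib (range of 3 libraries). Mitochondrially encoded reads were 1.58% to 1.68% of each control library in DMSO, 2.05% to 2.38% in trametinib and 2.21% to 2.34% in vemurafenib. The fibroblast markers summed to 57.7 to 63.5 CPM in trametinib and 57.1 to 60.3 CPM in vemurafenib, and the leukocyte markers to 7.43 to 8.43 and 8.84 to 10.1 CPM. LYZ carried the lower leukocyte sum, at a mean of 16.9 CPM in DMSO, 4.80 in trametinib and 7.40 in vemurafenib. Of 4 tested leukocyte genes, 2 rose and 1 fell with each drug. The part of these in the members' changes was not tested. All libraries are of the A375 line, so these sums are no shares of fibroblasts or leukocytes. In its bulk RNA, a change in how many cells express a gene and a change of RNA per cell cannot be told apart.

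The class IIa deacetylases, which have weak catalytic activity of their own and act mainly as signal-controlled partners of MEF2 transcription factors, include HDAC9, the member with the largest rise in each drug. HDAC9 counted 12.0, 12.1 and 11.3 CPM in the 3 control libraries in DMSO, 52.8, 52.9 and 49.7 CPM in trametinib and 45.9, 42.7 and 43.9 CPM in vemurafenib. Every drug library lay far above every DMSO library, a 4.39-fold rise in trametinib (log2 fold change 2.13 ± 0.058 SE, adjusted p = 6.88e-34) and a 3.75-fold rise in vemurafenib (1.91 ± 0.058, adjusted p = 9.47e-32). HDAC5 went from 77.3, 81.7 and 81.5 CPM in DMSO to 177, 174 and 184 in trametinib and 170.0, 166 and 161 in vemurafenib, which is 2.22-fold (adjusted p = 4.87e-31) and 2.06-fold (adjusted p = 2.9e-29), again without overlap. The other class IIa members moved little. HDAC7 had a log2 fold change of 0.06 in trametinib, not called, and 0.14 in vemurafenib. HDAC4 had 0.10 in trametinib and 0.17 in vemurafenib. Its call in trametinib was lost without any 1 of 4 libraries (control DMSO 1 or 3, control trametinib 1 or 2), where it read 0.08 to 0.09.

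Class I deacetylases, the catalytic core of the nuclear corepressors, split. HDAC2, the close relative of HDAC1 in NuRD, SIN3 and CoREST, fell from 192, 201 and 204 CPM in DMSO to 114, 112 and 116 in trametinib and 109.7, 107 and 111 in vemurafenib. The drug libraries all lay below the DMSO libraries, with log2 fold changes of -0.81 ± 0.031 (adjusted p = 1.08e-27) and -0.87 ± 0.031 (adjusted p = 6.2e-29). HDAC1 moved the other way, from 280.3, 273 and 286 CPM to 359.8, 354 and 363 in trametinib (0.36, adjusted p = 1.89e-16) and 334, 321 and 329 in vemurafenib (0.23, adjusted p = 2.39e-10). HDAC3 fell (-0.35 in trametinib and -0.30 in vemurafenib), and HDAC8, an X-linked class I enzyme that acts on cohesin, was not called with either drug.

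The class IIb and class IV enzymes rose. HDAC11, the sole class IV member and a defatty-acylase, went from 7.20, 7.42 and 7.19 CPM in DMSO to 13.3, 15.0 and 15.0 in trametinib and 14.4, 15.3 and 15.8 in vemurafenib, 1.98-fold (adjusted p = 2.49e-19) and 2.09-fold (adjusted p = 1.8e-20). HDAC6, the cytoplasmic tubulin deacetylase, rose 1.63-fold (adjusted p = 4.44e-19) and 1.60-fold (adjusted p = 2.53e-18). HDAC10, a polyamine deacetylase, rose 1.71-fold and 1.85-fold, but 55.8% of its exon bases are shared with MAPK12 on the same strand in GENCODE 29, so its counts could be split or dropped by the authors' counting and are uncertain.

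Among demethylases, the flavin enzyme KDM1A fell with both drugs. It counted 311, 316 and 328 CPM in control cells in DMSO, 183, 182 and 192 in trametinib and 192, 193 and 189.8 in vemurafenib. All drug libraries lay below all DMSO libraries (-0.78 ± 0.030, adjusted p = 9.53e-28, and -0.73 ± 0.030, adjusted p = 1.16e-26). Its relative KDM1B rose slightly (0.18 and 0.24). KDM4D, a short H3K9 demethylase of low level here, fell from 4.20, 3.67 and 4.61 CPM to 2.70, 2.54 and 2.48 in trametinib (adjusted p = 8.65e-06) and 2.30, 2.32 and 2.66 in vemurafenib (adjusted p = 1.17e-06). The long KDM4 enzymes, which act on trimethylated H3K9 and H3K36, rose instead: KDM4A by 0.48 and 0.51, KDM4B by 0.17 and 0.19 and KDM4C by 0.65 and 0.63 on the log2 scale in trametinib and vemurafenib. Of the exon bases of KDM4A, 40.2% are shared on the same strand with AL451062.3, which was given 20 counts over all libraries against 98887 for KDM4A, so the counts of KDM4A are uncertain.

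KDM6B, a demethylase of H3K27 trimethylation that is known as an inducible gene, had the largest rise of the KDM series. It counted 83.5, 85.0 and 87.6 CPM in DMSO, 155, 156 and 159 in trametinib and 144, 153 and 142 in vemurafenib, 1.83-fold (adjusted p = 7.35e-28) and 1.72-fold (adjusted p = 1.03e-25) with no overlap. KDM6A, its X-linked relative in the KMT2C and KMT2D complexes, rose by 0.35 and 0.22, and KDM7A, which acts on H3K9 and H3K27 dimethylation, by 0.55 and 0.61. In the KDM5 group of H3K4 trimethyl demethylases, KDM5A rose by 0.52 and 0.49, and KDM5B, known as a marker of slow-cycling melanoma cells, rose with trametinib (0.21) but was not called with vemurafenib (0.06). KDM5C had -0.08 in trametinib, a call that was lost without control trametinib library 2 (-0.05), and -0.02 in vemurafenib, not called. Of the H3K36 demethylases, KDM2B fell slightly (-0.14 and -0.20) and KDM2A was not called with either drug. KDM3B rose by 0.22 and 0.25, and KDM8, a JmjC protein better known as a hydroxylase, was not called.

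Of 7 sirtuins, 6 rose with each drug and 0 fell, beside 36.4% of all genes higher and 32.5% lower in trametinib and 35.7% and 31.6% in vemurafenib. SIRT2, a mainly cytoplasmic deacetylase of tubulin, rose most, from 31.2, 32.6 and 33.6 CPM in DMSO to 66.0, 63.6 and 69.6 in trametinib and 66.1, 64.2 and 62.8 in vemurafenib. This was 2.04-fold (adjusted p = 2.48e-27) and 1.98-fold (adjusted p = 1.73e-26), with all drug libraries above all DMSO libraries. SIRT7, the nucleolar sirtuin that removes H3K18 acetylation, went from 19.5, 18.6 and 20.0 CPM in DMSO to 32.2, 31.3 and 32.2 in trametinib and 29.6, 31.4 and 28.9 in vemurafenib (0.72 and 0.63). The 3 mitochondrial sirtuins rose less: the deacetylase SIRT3 by 0.43 and 0.53, SIRT4 by 0.52 and 0.43 and the desuccinylase SIRT5 by 0.39 and 0.40. SIRT1, the nuclear deacetylase of p53 and histones, rose by 0.34 and 0.28, and SIRT6, which deacetylates H3K9, was not called with either drug (-0.02 and 0.03). Scaling by library totals alone left these directions in place and called SIRT6 higher too, so that 7 of 7 were higher under it.

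**Figure D2:**
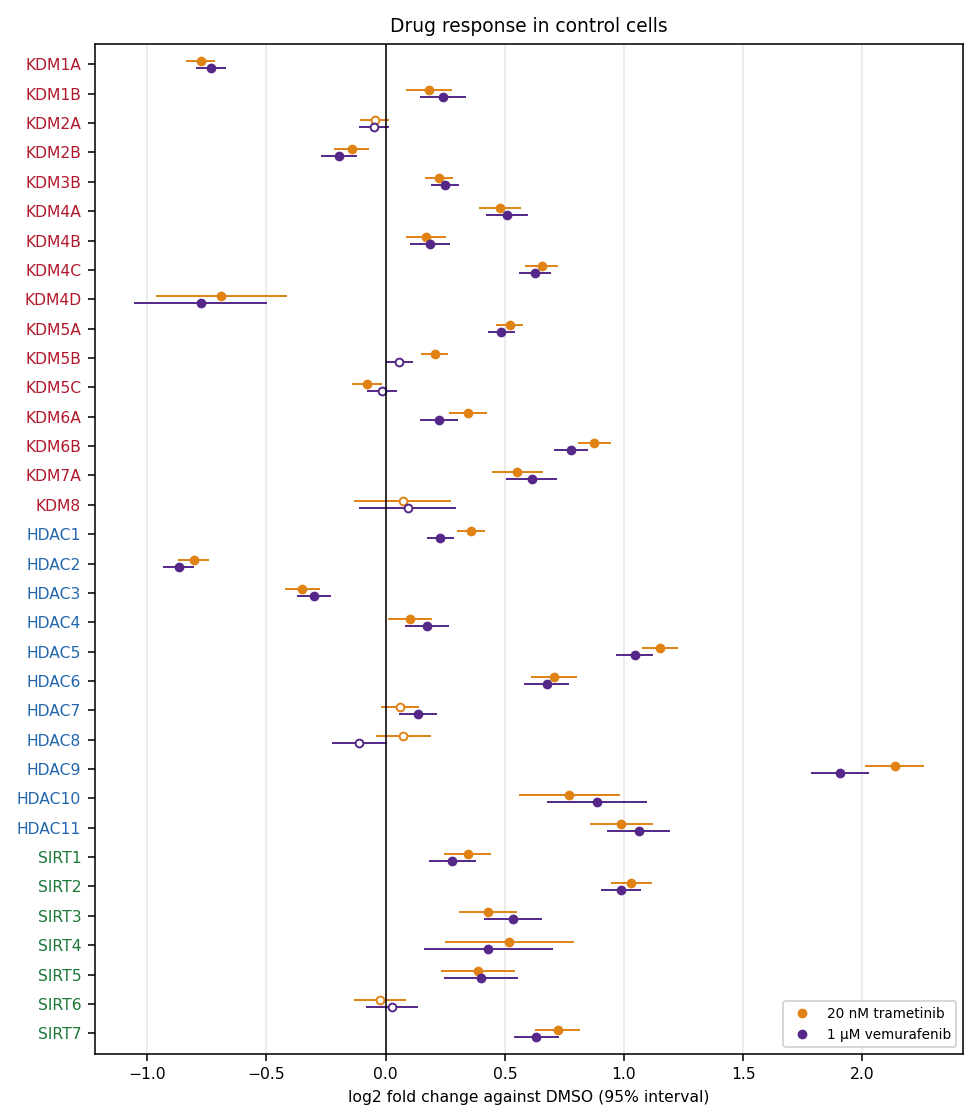
Log2 fold change of the 34 tested members in control cells against DMSO, with 95% intervals; filled points passed the adjusted p of 0.05, and gene names are coloured by family. HDAC9 lies farthest to the right at 2.13 and 1.91, and KDM1A, HDAC2 and KDM4D lie between -0.69 and -0.87 with both drugs.

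Few members differed between the drugs. Between vemurafenib and trametinib in control cells, 0 members were higher and 7 were lower in vemurafenib, beside 16.3% of all genes called (8.78% higher and 7.56% lower). Without control trametinib library 1 or control vemurafenib library 3, 4 members were called. The largest of these differences were HDAC9 (-0.23, adjusted p = 0.00109), HDAC8 (-0.19, adjusted p = 0.0125) and KDM5B (-0.15, adjusted p = 2.65e-05). HDAC8 counted 17.1, 17.7 and 17.8 CPM in trametinib and 15.7, 15.3 and 15.3 in vemurafenib, around 16.9, 16.5 and 16.6 in DMSO. KDM5B counted 375.1, 362 and 373 in trametinib, 343, 335 and 324 in vemurafenib and 323, 316 and 324 in DMSO. HDAC1 (-0.13) was lower too, and KDM6A (-0.12), HDAC5 (-0.11) and KDM6B (-0.10) were called but lost the call without any 1 of 3, 4 and 5 libraries of these groups, where they read -0.12 to -0.07, -0.11 to -0.08 and -0.11 to -0.08.

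In DMSO, TADA2B knockout cells had about as many members above as below control cells. Taken as the mean of both guides, 14 were higher and 15 lower of 34, with a median log2 difference of -0.01 against 0.00 over all genes, beside 57.9% of all genes called (29.3% higher and 28.6% lower). By family, 4 KDM genes were higher and 8 lower, 5 HDAC genes were higher and 6 lower, and 5 sirtuins were higher and 1 lower. With library totals alone as the scale, which moved the median of all genes by 0.13, the split was 18 higher and 8 lower, the KDM genes turned to 7 higher and 5 lower, and the HDAC genes to 5 higher and 2 lower. Mitochondrially encoded reads were 2.33% to 2.74% of each knockout library in DMSO, above the control libraries. In the knockout libraries proliferation genes summed to 1608 to 1719 CPM, fibroblast markers to 59.3 to 75.5 CPM, leukocyte markers to 25.7 to 36.7 CPM and endothelial markers to 7.91 to 8.97 CPM, and their part in these differences was not tested.

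HDAC9 was the most reduced member. It counted 6.40, 5.95 and 5.35 CPM with guide 1 and 5.00, 4.90 and 4.79 CPM with guide 2, all below the control libraries given above (-1.13 ± 0.058, adjusted p = 2.12e-22). KDM1A counted 192, 196 and 198 CPM with guide 1 and 195, 191 and 196 with guide 2, against at least 311 CPM in every control library (-0.71 ± 0.025, adjusted p = 1.58e-28). HDAC2 was lower too, at 129, 137 and 129.7 CPM with guide 1 and 133, 136 and 133 with guide 2 (-0.58 ± 0.026, adjusted p = 1.78e-24). KDM4D (-0.66), SIRT4 (-0.43), KDM5B (-0.43) and KDM2B (-0.34) were the other members below -0.3. HDAC3 was lower by less (-0.16).

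The largest increases in knockout cells in DMSO were in HDAC10, HDAC11 and SIRT5. HDAC11 counted 9.99, 9.88 and 9.505 CPM with guide 1 and 10.7, 10.6 and 10.6 with guide 2, above every control library (0.49 ± 0.057, adjusted p = 2e-10). SIRT5 counted 9.32, 9.19 and 8.29 (guide 1) and 9.44, 8.94 and 9.31 (guide 2) CPM against 6.62, 6.55 and 7.20 in control cells (0.42 ± 0.065, adjusted p = 2.61e-07). HDAC10, whose exons overlap MAPK12, counted 4.26, 4.06 and 3.56 (guide 1) and 4.74, 4.12 and 4.44 (guide 2) CPM against 2.80, 2.75 and 2.58 (0.63 ± 0.090, adjusted p = 4.93e-08). SIRT7 (0.38) and KDM8 (0.34) were also higher, each with both guides. Smaller increases of SIRT1 (0.11) and SIRT6 (0.12) lost their calls without any 1 of 3 libraries (control DMSO 1 or 3, guide 1 DMSO 3; 0.08 to 0.10) and of 2 libraries (control DMSO 1 or 2; 0.07 to 0.12). HDAC6 (-0.13) lost its call without control DMSO library 2 (-0.08).

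Under either drug, the knockout cells held less RNA of most members than control cells given the same drug. In trametinib 5 members were higher and 25 lower, with a median log2 difference of -0.23 against -0.02 over all genes, beside 55.9% of all genes called (27.1% higher and 28.8% lower). In vemurafenib 4 were higher and 22 lower, with a median of -0.21 against -0.01, beside 55.6% of all genes called (27.3% higher and 28.3% lower). Without guide 2 vemurafenib library 3 the split in vemurafenib was 7 higher and 22 lower. In the KDM series 1 was higher and 13 lower of 16 in each drug. Library totals alone gave 8 higher and 18 lower in trametinib and 7 higher and 19 lower in vemurafenib, where the median of all genes moved by 0.11 in each. Across all 3 treatments, where each comparison has control libraries of its own but the fit pools their spread, 11 members were lower in knockout cells, beside 14.1% of all genes (HDAC2, HDAC5, HDAC6, HDAC9, KDM1A, KDM1B, KDM2B, KDM3B, KDM5A, KDM5B and KDM6B) and 4 were higher, beside 14.4% (HDAC10, HDAC11, KDM8 and SIRT5). Another 7 were higher in DMSO but lower in both drugs, beside 3.56% of all genes (HDAC1, HDAC4, KDM4C, KDM5C, SIRT1, SIRT2 and SIRT6), and 4 were not called in DMSO but lower in both drugs, beside 5.84% (KDM2A, KDM4A, KDM6A and KDM7A). Of the 7, HDAC4, SIRT1 and SIRT6 were called in DMSO with only 1 of the guides. Calls of SIRT1 and SIRT6 in DMSO and of KDM5C and SIRT6 in trametinib were lost without single libraries. In the drugs mitochondrially encoded reads were 3.13% to 3.58% of knockout libraries in trametinib and 3.16% to 3.598% in vemurafenib, and fibroblast markers summed to 104 to 139 and 97.0 to 121 CPM, and their part was not tested.

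**Figure D3:**
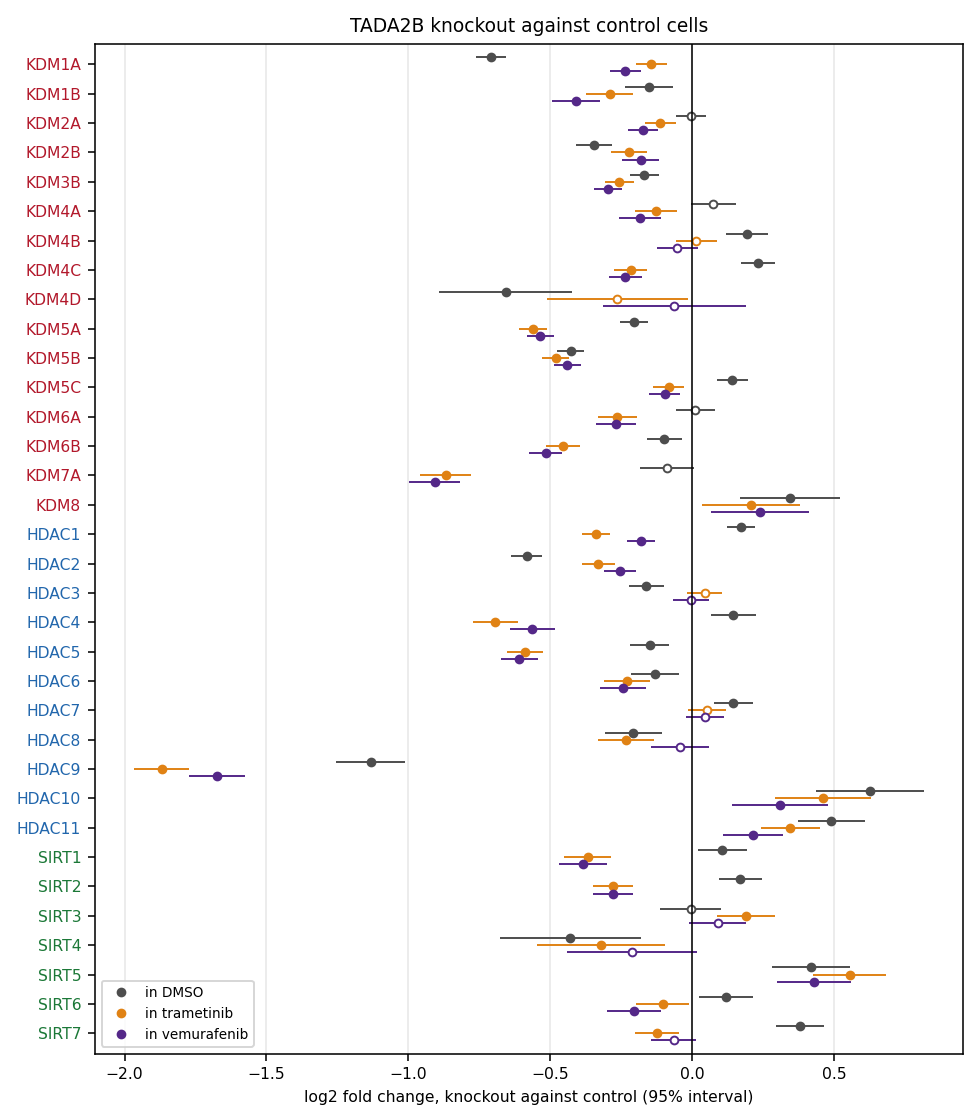
Log2 difference of the 34 tested members between TADA2B knockout cells (mean of both guides) and control cells in each treatment, with 95% intervals; filled points passed the adjusted p of 0.05. HDAC9 lies at -1.13, -1.87 and -1.68, while HDAC4, HDAC1 and SIRT2 lie right of 0 in DMSO and left of 0 in both drugs.

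HDAC9 stood farthest apart in the drugs. In trametinib it counted 16.4, 15.7 and 15.6 CPM with guide 1 and 12.6, 13.1 and 12.2 with guide 2, against 49.7 to 52.9 CPM in control libraries, a 3.65-fold lower level (-1.87 ± 0.046, adjusted p = 3.3e-35). In vemurafenib it counted 14.4, 16.8 and 16.2 (guide 1) and 11.5, 11.6 and 13.2 (guide 2) CPM, a 3.19-fold lower level (-1.68 ± 0.047, adjusted p = 6.2e-33). Of the 12 knockout libraries in the drugs, 2, both of guide 2 in vemurafenib, lay within the range of control cells in DMSO, 11.3 to 12.1 CPM, and the other 10 lay above it. The summed level of 8 melanocyte lineage genes moved too: 1005 to 1076 CPM in control libraries in DMSO, 2236 to 2369 in trametinib and 2312 to 2347 in vemurafenib, against 344 to 567, 458 to 767 and 458 to 799 CPM in knockout libraries. Within that list, DCT made up most of the rise in control cells, from 0.938 CPM in DMSO to 1047 in trametinib, and its part in the HDAC9 result was not tested.

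KDM7A and HDAC4 followed. KDM7A counted 24.1, 23.2 and 23.1 CPM in control cells in DMSO, 36.6, 33.3 and 33.2 in trametinib and 35.04, 36.2 and 36.4 in vemurafenib. With guide 1 it counted 23.3, 23.1 and 22.8 CPM in DMSO, 19.5, 21.3 and 21.0 in trametinib and 22.1, 21.7 and 22.1 in vemurafenib, and with guide 2 21.8, 20.1 and 21.3 (DMSO), 18.0, 16.1 and 17.4 (trametinib) and 16.6, 15.4 and 17.9 (vemurafenib). The drug libraries of knockout cells thus all lay below those of control cells (-0.87 ± 0.043, adjusted p = 6.41e-23 in trametinib, and -0.91 ± 0.043, adjusted p = 1.32e-23 in vemurafenib), while in DMSO the difference was not called (-0.09, adjusted p = 0.0896). HDAC4, a class IIa deacetylase best known from muscle and bone, counted 31.3, 32.8 and 30.8 CPM in control cells in DMSO, 34.3, 34.4 and 33.1 in trametinib and 35.9, 36.8 and 34.3 in vemurafenib. Guide 1 cells had 36.3, 36.9 and 37.6 (DMSO), 22.4, 22.1 and 22.8 (trametinib) and 25.5, 25.0 and 26.9 (vemurafenib) CPM, and guide 2 cells 35.2, 31.7 and 32.4 (DMSO), 19.2, 19.5 and 20.2 (trametinib) and 22.5, 22.5 and 22.6 (vemurafenib). Every drug library of knockout cells was below every other library of the study (-0.69 ± 0.038, adjusted p = 2.51e-21, and -0.56 ± 0.038, adjusted p = 4.9e-18).

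HDAC5 was lower in both drugs (-0.59 in trametinib and -0.61 in vemurafenib), at 123, 129 and 119.8 CPM with guide 1 and 107, 115 and 117 with guide 2 in trametinib and 108, 112 and 112 (guide 1) and 108, 111 and 99.5 (guide 2) in vemurafenib. KDM5A, the founding H3K4 trimethyl demethylase, was lower too, with log2 differences of -0.56 and -0.54, as were KDM5B with -0.48 and -0.44, KDM6B -0.45 and -0.52, SIRT1 -0.37 and -0.38, HDAC1 -0.34 and -0.18, and SIRT2 -0.28 and -0.28. The members that stayed higher were SIRT5, at 12.2, 11.1 and 13.3 CPM with guide 1 and 13.7, 14.2 and 13.9 with guide 2 against 8.58, 8.93 and 9.16 in control cells in trametinib (0.55, adjusted p = 6.33e-11), with HDAC10 (0.46), HDAC11 (0.35), KDM8 (0.21) and, in trametinib alone, SIRT3 (0.19). In vemurafenib SIRT5 counted 11.0, 12.2 and 10.7 (guide 1) and 13.0, 12.7 and 13.0 (guide 2) CPM against 9.78, 8.43 and 8.62 (0.43, adjusted p = 4.97e-08). Some of the smaller calls rested on single libraries. KDM8 in trametinib was lost without control 2 or 3, guide 1 library 3 or guide 2 library 3 (0.17 to 0.19) and in vemurafenib without control 3 (0.19). In trametinib SIRT4 (-0.32) was lost without control 3 (-0.19), KDM5C (-0.08) without control 3 (-0.06) and SIRT6 (-0.10) without any 1 of 6 of the 9 libraries (-0.11 to -0.06).

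**Figure D4:**
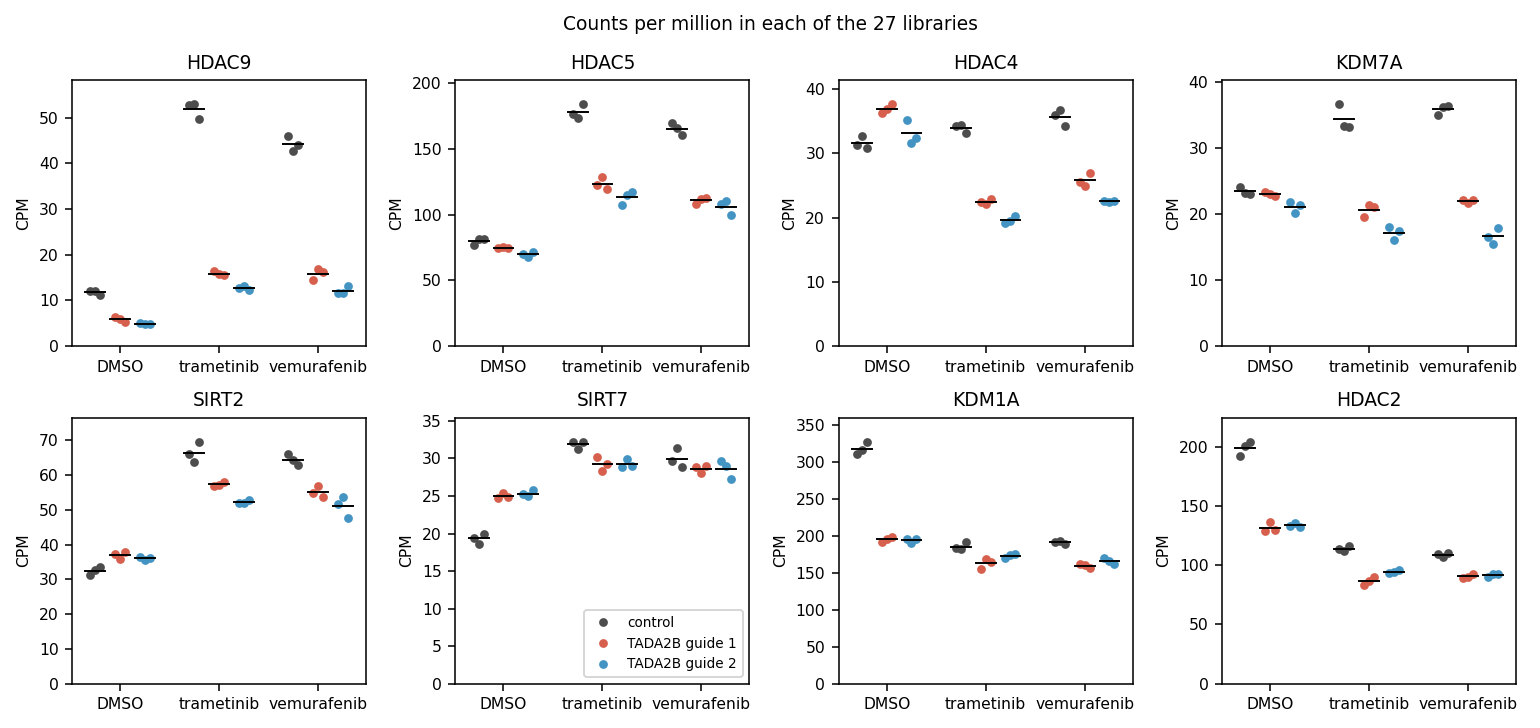
CPM of 8 members in each of the 27 libraries, by treatment, with black lines at the group means; axes start at 0. HDAC9, HDAC5 and SIRT2 rise with the drugs less in knockout cells, and HDAC4 is lowest in knockout cells under drugs. KDM7A under drugs is lower in knockout than in control cells, and KDM1A and HDAC2 are highest in control cells in DMSO.

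The drug response itself lay below that of control cells in knockout cells for most members. Such a difference can be a smaller rise, a fall in place of a rise, or a larger fall. Within knockout cells trametinib raised 17 and lowered 11 of 34 members, with a median log2 fold change of 0.06, beside 71.4% of all genes called (37.2% higher and 34.3% lower). Vemurafenib raised 16 and lowered 10, with a median of 0.04, beside 69.1% of all genes called (36% higher and 33.1% lower). Other scales moved these splits: library totals alone gave 22 higher and 5 lower in trametinib and 22 and 6 in vemurafenib, and upper-quartile scaling 22 and 6 and 20 and 8. The difference between the responses, knockout minus control, was called for 25 members with trametinib, 6 above and 19 below 0, beside 43.9% of all genes (20.8% above and 23.2% below 0). With vemurafenib it was called for 27, 6 above and 21 below 0, beside 42.5% of all genes (20.0% above and 22.4% below). The medians were -0.15 and -0.25 against -0.02 and -0.01 over all genes. Both interactions share the DMSO libraries of control and knockout cells. Across the scalings tried, 17 to 21 members were below 0 with trametinib and 21 to 22 with vemurafenib.

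In 4 members, HDAC1, HDAC4, KDM7A and SIRT1, each drug raised the gene in control cells and lowered it in knockout cells, although the rise of HDAC4 in trametinib rested on single libraries as given above. Of all genes, 2.42% did so with trametinib and 2.1% with vemurafenib. The difference was largest for HDAC4, at -0.84 ± 0.054 with trametinib (adjusted p = 3.25e-18) and -0.71 ± 0.054 with vemurafenib (adjusted p = 1.21e-15), and for KDM7A, at -0.78 ± 0.063 (adjusted p = 7.7e-15) and -0.82 ± 0.063 (adjusted p = 1.81e-15). In knockout cells the drugs changed HDAC4 by -0.74 and -0.54, and KDM7A by -0.23 and -0.21. SIRT1 counted 36.3, 39.0 and 37.0 CPM in control cells in DMSO, 49.0, 46.9 and 46.7 in trametinib and 46.0, 44.1 and 46.1 in vemurafenib, against 39.5, 38.2 and 41.6 (DMSO), 37.2, 34.6 and 37.2 (trametinib) and 35.5, 34.6 and 34.7 (vemurafenib) with guide 1 and 41.1, 41.7 and 39.7 (DMSO), 38.3, 37.6 and 36.1 (trametinib) and 31.2, 34.9 and 38.0 (vemurafenib) with guide 2. Its response differed by -0.47 and -0.49 (adjusted p = 1.28e-09 and 6.98e-10). For HDAC1 the knockout libraries held 302, 310.4 and 308 (guide 1) and 321, 330.1 and 319 (guide 2) CPM in DMSO and 276, 282 and 283 (guide 1) and 281, 292 and 288 (guide 2) in trametinib, and the response differed by -0.51 and -0.35. With upper-quartile scaling the falls of HDAC1 in knockout cells under both drugs (-0.03 and -0.02) and of SIRT1 under trametinib (-0.01) were no longer called. With library totals alone HDAC4 kept its falls (-0.57 and -0.39), while those of KDM7A (-0.07 and -0.06), SIRT1 (0.03 and -0.07) and HDAC1 (0.01 and 0.02) were not called. With guide 1 alone the fall of KDM7A in vemurafenib was not called (-0.07).

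Other members rose in both kinds of cells, but less in knockout cells. HDAC9 still rose there, by 1.40 and 1.36, with differences from the control response of -0.74 ± 0.075 and -0.54 ± 0.076 (adjusted p = 1.28e-11 and 4.53e-08). HDAC5 rose by 0.71 and 0.59 (differences of -0.44 and -0.46), SIRT2 by 0.58 and 0.54 (-0.45 and -0.45), KDM4C by 0.21 and 0.16 (-0.45 and -0.47), and SIRT7 by 0.22 and 0.19 (-0.50 and -0.45). SIRT2 counted 37.3, 35.8 and 37.8 (DMSO), 56.8, 57.1 and 58.0 (trametinib) and 54.7, 56.9 and 53.8 (vemurafenib) CPM with guide 1, and 36.4, 35.7 and 36.05 (DMSO), 52.0, 51.9 and 52.7 (trametinib) and 51.8, 53.8 and 47.5 (vemurafenib) with guide 2. It thus started above and ended below the control level. SIRT7 started above control cells in DMSO, at 24.8, 25.4 and 24.9 (guide 1) and 25.2, 25.0 and 25.8 (guide 2) CPM, and had log2 differences of -0.12 in trametinib and -0.07, not called, in vemurafenib.

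KDM1A, HDAC2, HDAC3, KDM2B and KDM4D had differences above 0 with both drugs. The same control libraries give their falls in control cells and these differences, so the 2 are not separate measurements. The other calls above 0 were SIRT3 with trametinib and HDAC8 with vemurafenib (0.17), the latter lost without any 1 of 12 libraries (0.14 to 0.18). KDM1A fell in knockout cells (-0.21 and -0.26), a response 0.57 ± 0.037 and 0.47 ± 0.037 above that of control cells (adjusted p = 3.78e-18 and 2.17e-15). It counted 155, 169 and 165 (guide 1) and 170.2, 174 and 176 (guide 2) CPM in trametinib and 162, 160.5 and 157 (guide 1) and 169.8, 166 and 162 (guide 2) in vemurafenib, so every drug library still lay below every DMSO library of the same cells. HDAC2 counted 83.6, 87.1 and 90.2 (guide 1) and 93.3, 94.3 and 95.7 (guide 2) CPM in trametinib and 89.7, 90.3 and 92.6 (guide 1) and 90.3, 92.6 and 92.8 (guide 2) in vemurafenib, and its response differed by 0.25 and 0.33 (adjusted p = 2.24e-07 and 4.95e-10). HDAC3 (0.21 and 0.16) and KDM2B (0.12 and 0.16) had the same sign, with the trametinib call of KDM2B lost without control DMSO library 3 or control trametinib library 2 (0.10 to 0.11). KDM4D, with 1.72 to 4.61 CPM in any library, had 0.39 ± 0.16 with trametinib, a call lost without any 1 of 14 libraries (0.31 to 0.43), and 0.59 ± 0.16 with vemurafenib (adjusted p = 0.0025). All 8 proliferation genes also had a difference above 0 with each drug, and their part in these members' values was not tested.

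In knockout cells both drugs also raised HDAC11, HDAC6 (0.61 and 0.56), HDAC10 (0.61 and 0.57), SIRT3 (0.62 and 0.63), SIRT4 (0.63 and 0.65), SIRT5 (0.52 and 0.41) and KDM6B (0.52 and 0.36). HDAC11 counted 18.4, 18.5 and 18.8 CPM with guide 1 and 18.4, 17.7 and 18.2 with guide 2 in trametinib, all above the DMSO libraries of the same cells (0.84, and 0.79 in vemurafenib). KDM5C counted 251, 246 and 248.6 (guide 1) and 254, 252 and 257 (guide 2) CPM in DMSO and 196, 206 and 205 (guide 1) and 203, 209 and 204 (guide 2) in trametinib (-0.30, and -0.25 in vemurafenib), and SIRT6 fell with both drugs (-0.25 and -0.30).

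Differences were not called with either drug for HDAC6, HDAC7, KDM5B, KDM8, SIRT4 and SIRT5. HDAC6 had -0.10 (95% interval -0.22 to 0.02) and -0.11 (-0.23 to 0.00), and KDM5B -0.05 (-0.12 to 0.02) and -0.01 (-0.08 to 0.06). SIRT3 had a response difference of 0.20 for trametinib, lost without control DMSO library 1 or control trametinib library 1 or 2 (0.15 to 0.18), and 0.10 for vemurafenib, not called. SIRT4 counted 1.56, 1.52 and 1.97 (guide 1) and 1.59, 1.58 and 1.55 (guide 2) CPM in DMSO and 2.48, 2.61 and 2.65 (guide 1) and 2.53, 2.70 and 2.32 (guide 2) in vemurafenib, a rise of 0.65, against 0.43 in control cells.

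**Figure D5:**
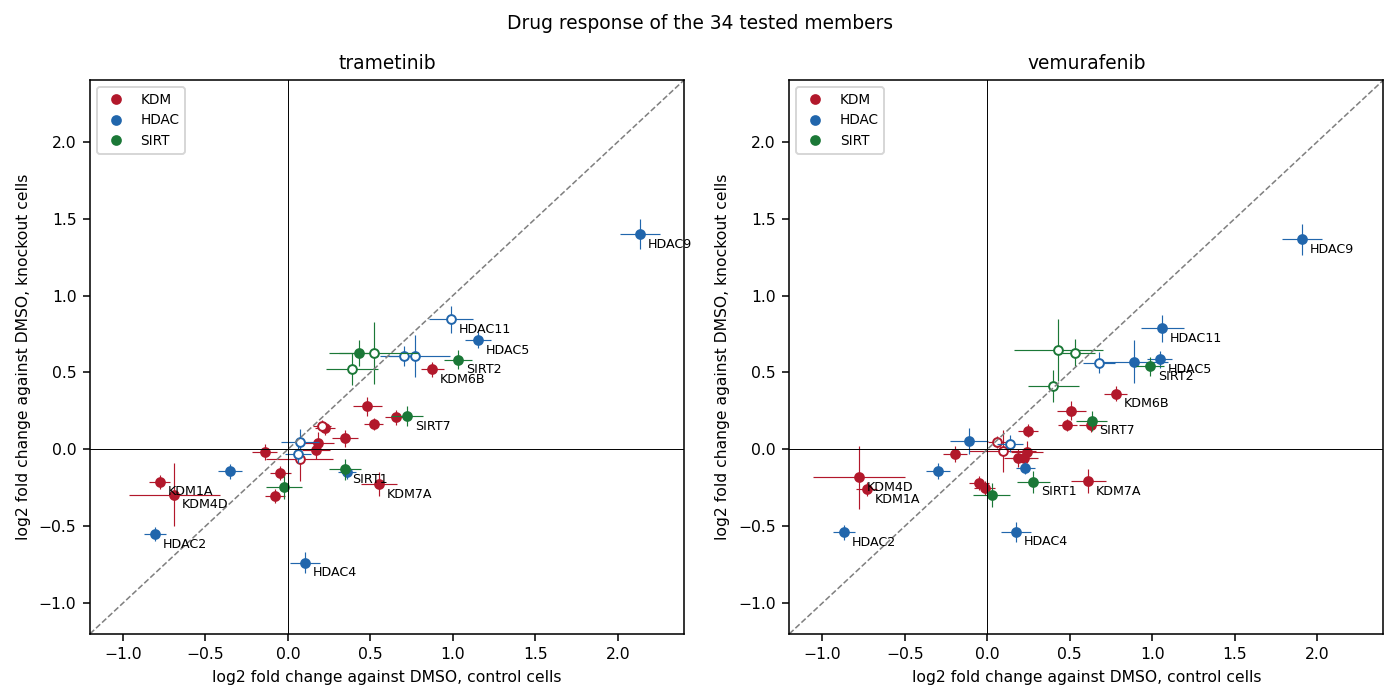
Drug response of the 34 tested members in knockout cells (vertical) against control cells (horizontal), as log2 fold change against DMSO with 95% intervals; the dashed line marks equal responses, and filled points passed the test of the difference. HDAC9, HDAC5 and SIRT2 lie right of the line, HDAC4 and KDM7A lie below 0 on the vertical axis, and KDM1A and HDAC2 lie above the line on its left.

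Promoter windows of the members were searched for short motifs. RefSeq windows of 300 bases (250 before to 50 after a gene's start, GRCh38.p14) were at hand for 34 of the 37 members, 52 windows in all since some genes have several starts, and were read on both strands. The E-box CACGTG, bound by MITF and MYC among others, was in 5 of these 52 windows, 1 each of HDAC4, KDM4B, KDM4C, KDM6A and SIRT1, which is 9.62% against 7.26% of all 35116 windows. All 5 were among the 19 of 34 tested members with called differences in drug response below 0 with both drugs. That class takes in most tested members. Its other 14 lack the box in their windows or, for HDAC5 and SIRT7, had no window at hand. The members with windows are not the tested set, since they include KDM4F and KDM5D, which were not tested. HDAC4 also has windows without the box. The 150 bases before the start of 4 of the 5 are shown, 5′ to 3′ on the gene's strand, with the E-box in capitals.
HDAC4 (chr2:239401650-239401799, minus strand): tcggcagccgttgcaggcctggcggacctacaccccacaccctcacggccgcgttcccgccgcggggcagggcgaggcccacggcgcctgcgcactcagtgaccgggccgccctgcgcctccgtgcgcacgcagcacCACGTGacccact
KDM4C (chr9:6757823-6757972, plus strand): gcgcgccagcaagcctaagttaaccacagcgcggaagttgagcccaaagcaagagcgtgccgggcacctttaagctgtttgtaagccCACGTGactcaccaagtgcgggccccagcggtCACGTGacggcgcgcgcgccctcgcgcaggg
KDM6A (chrX:44873038-44873187, plus strand): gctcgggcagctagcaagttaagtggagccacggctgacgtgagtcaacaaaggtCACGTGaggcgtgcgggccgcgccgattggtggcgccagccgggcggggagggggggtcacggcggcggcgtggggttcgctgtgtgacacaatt
SIRT1 (chr10:67884506-67884655, plus strand): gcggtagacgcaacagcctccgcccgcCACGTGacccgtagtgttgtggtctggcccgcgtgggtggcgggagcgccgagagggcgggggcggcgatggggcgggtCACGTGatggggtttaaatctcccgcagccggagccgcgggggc
KDM4C and SIRT1 hold 2 such boxes each, at -63 and -31 and at -123 and -44 from the start, HDAC4 holds 1 at -13 and KDM6A 1 at -95. The AP-1 motif (TGACTCA or TGAGTCA) was in 2 of the 52 windows (3.85%), of KDM4C and KDM6A, against 4.95% of all windows, and in KDM4C it overlaps the distal E-box. The E2F motif (TTTCGCGC, TTTGGCGC or TTTCCCGC) was in 2 (3.85%), of KDM1B and SIRT6, against 2.74% of all windows, the ETS motif CCGGAAGT in 2 (3.85%), of KDM5A and SIRT3, against 4.14%, the CRE TGACGTCA in 1 (1.92%), of SIRT4, against 1.85%, and the M-box TCATGTG in 0 against 2.92%. KDM1B, KDM4C, KDM5A, KDM6A and SIRT6, which hold these other motifs, were among the same 19 members, while SIRT3 and SIRT4 were not. A match is a description of the letters and not of binding, and no link of a motif to the drug response was tested.

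In each drug the largest called differences between the guides were those of HDAC9 and KDM7A, both lower with guide 2. Between guide 2 and guide 1, 1 member was higher and 3 lower in DMSO, beside 11.9% of all genes called (4.64% higher and 7.29% lower), 3 and 8 in trametinib, beside 19.7% (10.8% higher and 8.91% lower), and 1 and 7 in vemurafenib, beside 16.0% (7.12% higher and 8.85% lower). Library totals alone gave 3 higher and 2 lower in DMSO and 3 and 3 in vemurafenib, and upper-quartile scaling 2 and 3 in DMSO and 1 and 8 in trametinib. Without guide 2 library 3, 2 members were called in DMSO. In vemurafenib the 8 calls became 3 without guide 1 library 1, 4 without guide 1 library 3, 5 without guide 1 library 2 or guide 2 library 1 or 2, and 6 without guide 2 library 3. HDAC9 was lower with guide 2, with -0.27 in DMSO, -0.33 in trametinib (adjusted p = 2.89e-05) and -0.38 in vemurafenib (adjusted p = 2.51e-06). Its DMSO call was lost without guide 1 library 1 or guide 2 library 3 (-0.25 to -0.21). KDM7A differed by -0.26 (adjusted p = 0.00013) and -0.40 (adjusted p = 5.13e-08) in the drugs and by -0.13, not called, in DMSO. HDAC4 differed by -0.16, -0.19 and -0.20, of which the DMSO call was lost without guide 1 library 3 or guide 2 library 2 or 3 (-0.15 to -0.13). HDAC7 was higher with guide 2 in DMSO, at 72.3, 71.7 and 73.5 CPM against 61.0, 63.1 and 62.2 with guide 1 and 61.1, 60.7 and 60.3 in control cells (0.22, adjusted p = 1.18e-05). KDM5B was lower with guide 2 in DMSO, at 230.0, 227 and 231 CPM against 247, 245 and 252 (-0.11, adjusted p = 0.00234), and in trametinib (-0.12). SIRT5 was higher with guide 2 in trametinib (0.19) and vemurafenib (0.19), but each call was lost without any 1 of 5 of the 6 libraries (0.13 to 0.20 and 0.15 to 0.20).

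With each guide alone the main differences kept their sign. In trametinib HDAC9 was -1.71 (guide 1) and -2.03 (guide 2) from control, KDM7A -0.74 and -1.001, HDAC4 -0.60 and -0.79, and HDAC5 -0.53 and -0.65. In DMSO KDM1A was -0.70 and -0.71. Calls that only 1 guide gave were, in DMSO, HDAC4 (0.22 and 0.07 for guides 1 and 2), HDAC6 (-0.19 and -0.07), HDAC7 (0.03 and 0.26), KDM1B (-0.10 and -0.20), KDM6B (-0.06 and -0.14), KDM7A (-0.02 and -0.15), SIRT1 (0.09 and 0.12) and SIRT6 (0.08 and 0.16). Of these 8, the difference between guides was called for HDAC4 and HDAC7. In trametinib KDM8, SIRT4 and SIRT6, and in vemurafenib KDM8, were called with 1 guide alone, and the difference between guides was called for 0 of them. Mean TADA2B RNA was lower with guide 2 than with guide 1 in each treatment, as given above. In DMSO its libraries overlapped, at 29.57 to 31.08 CPM with guide 1 and 27.27 to 29.62 CPM with guide 2. Its part in the differences between guides was not tested.

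The partners of the members were read from 12 lists with 94 genes. In NuRD, which holds HDAC1 and HDAC2, trametinib lowered 9 of 11 subunits in control cells and raised 2, with a median log2 fold change of -0.37, beside 36.4% of all genes higher and 32.5% lower (shares that apply to each list in trametinib here). Library totals alone gave 3 higher and 7 lower with a median of -0.18. The histone chaperone RBBP7 (-0.99), the remodeller CHD3 (0.79) and the scaffold GATAD2A (-0.75) changed most. In CoREST, which holds KDM1A, HDAC1 and HDAC2, trametinib raised 6 of 8 and lowered 2 (6 and 1 with library totals alone), among them PHF21A (0.75), the reader of unmethylated H3K4, and RCOR2 (-0.72). The knockout lowered 7 of the 8 CoREST subunits in DMSO and raised 1, beside 28.6% of all genes lower and 29.3% higher, with RCOR2 at -1.48 and HMG20B at -0.85, and library totals alone left 3 lower and 1 higher. In SIN3, trametinib lowered 6 of 11 and raised 2 with a median of -0.14, which turned to 4 and 4 with a median of 0.04 with library totals alone. In NCoR/SMRT, which holds HDAC3, each drug raised 2 of 5 subunits in control cells and lowered 2. Of all genes, 35.7% were higher and 31.6% lower in vemurafenib. TBL1X fell most (-2.60 in trametinib and -2.08 in vemurafenib).

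MEF2C, a main partner of the class IIa deacetylases, had the same signs as HDAC9. It rose by 2.47 in trametinib and 2.35 in vemurafenib in control cells, was lower in knockout cells (-1.81 in DMSO, -2.40 in trametinib and -2.29 in vemurafenib) and had response differences of -0.59 and -0.48. The other MEF2 factors had smaller values in control cells, with MEF2A at 0.24 in trametinib and 0.19 in vemurafenib. Of the opposing enzymes, 7 of 11 lysine acetyltransferases rose with trametinib and 1 fell (36.4% and 32.5% of all genes), with the SAGA enzyme KAT2B at 2.24 in trametinib and 2.88 in vemurafenib and the histone acetyltransferase HAT1 at -1.10. In knockout cells 7 of 11 were lower and 1 higher in trametinib, and 8 lower and 1 higher in vemurafenib, beside 28.8% of all genes lower and 27.1% higher and 28.3% and 27.3%. Library totals alone gave 6 lower and 3 higher in trametinib and 7 and 2 in vemurafenib. KAT2B was 0.56 in knockout cells in DMSO but -0.36 and -0.79 in the drugs, and its response differed by -0.93 and -1.35. These partner values are means of both guides. Between guide 2 and guide 1, 1 acetyltransferase was called higher and 1 lower in each drug, with lowest values of -0.56 in trametinib and -0.80 in vemurafenib. Among 4 MEF2 factors 1 was called lower in each drug and 1 higher in trametinib alone, with lowest values of -0.97 and -1.03.

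Among the methyltransferases whose marks the KDM enzymes remove, trametinib changed members of each list in both directions in control cells. Of 6 H3K9 enzymes 2 rose and 2 fell, with a median of 0.06. Of 6 H3K27 and H3K36 enzymes 3 rose and 3 fell, with a median of 0.006. The H3K9 enzymes SUV39H2 (-2.00) and SUV39H1 (-1.62) and the H3K27 enzyme EZH2 (-1.40) fell, while SETDB2 rose (1.06). These stand beside 36.4% of all genes higher and 32.5% lower. Of 7 H3K4 methyltransferases, 6 were lower and 1 higher in knockout cells in each drug. Of all genes, 28.8% were lower and 27.1% higher there in trametinib, and 28.3% and 27.3% in vemurafenib. Of 9 tested JmjC proteins outside the KDM series, 6 were lower and 1 higher in knockout cells in each drug, and library totals alone gave 6 lower and 2 higher in trametinib and 6 and 3 in vemurafenib. HR, known from hair follicles, was the higher (0.89 in trametinib). In NAD+ metabolism, 8 of 12 genes rose and 4 fell with each drug in control cells, beside 36.4% and 32.5% of all genes in trametinib and 35.7% and 31.6% in vemurafenib. CD38, an NAD+ hydrolase, rose by 2.05 in trametinib, NMRK1, the nicotinamide riboside kinase, by 1.57, and NMNAT2, which makes NAD+ in the cytoplasm, fell (-1.60).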

How the data were processed

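The authors deposited 1 table of raw counts of reads per gene for 27 libraries from polyA-selected RNA, made with a stranded mRNA kit per the labels' protocols. HISAT2, HTSeq, bcl2fastq and the build hg38 are named in the submitters' processing notes. No source used here gives versions, the annotation or the strand setting of the counting. Gene symbols were matched from GENCODE 29, which held 58676 of the 58721 identifiers.

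Counts were tested with edgeR 4.0.16 (R 4.3.3): genes passing filterByExpr (25199), TMM scaling (factors 0.866 to 1.09), 1 mean for each of 9 groups, 18 residual degrees of freedom, the robust quasi-likelihood test and Benjamini-Hochberg adjustment over all genes, called under 0.05. The knockout is the mean of both guides, and an interaction is the drug response in knockout cells minus that in control cells. CPM are TMM-scaled, and RPKM divides CPM by the union of exons. The fit was tested on simulated data. Replicates differed by more than sampling noise (chi-square per degree of freedom 2.88 to 11.9), and depth let genes near 1 CPM be counted.

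Members and lists were chosen with earlier results of these data known. All 34 tested members are named with log2 values, and only some of them with counts. Those named with values for each library had the largest called changes in a comparison, in either direction. Exceptions were HDAC1, KDM6B, SIRT1 and SIRT7, which were added after their values were seen. Alternatives were other scalings, other filters, limma voom 3.58.1, DESeq2 1.42.0, a replicate block, each guide alone, only the groups compared, and leaving out each library. 1 gene of the KDM series is not analysed here.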

Additional observations from a re-analysis of the deposited data

Results flagged for a closer look

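The response to trametinib differed between knockout and control cells, by the interaction term of edgeR's quasi-likelihood test, for 25 members. Log2 differences below 0 were those of HDAC4 (-0.84), KDM7A (-0.78), HDAC9 (-0.74), HDAC1 (-0.51), SIRT7 (-0.50), SIRT1 (-0.47), SIRT2 (-0.45), KDM4C (-0.45), HDAC5 (-0.44), KDM6B (-0.36), KDM5A (-0.35), KDM6A (-0.28), SIRT6 (-0.22), KDM5C (-0.22), KDM4A (-0.20), KDM4B (-0.18), KDM1B (-0.14), KDM2A (-0.11) and KDM3B (-0.087). Those above 0 were KDM1A (0.57), KDM4D (0.39), HDAC2 (0.25), HDAC3 (0.21), SIRT3 (0.20) and KDM2B (0.12). Without 1 of the libraries the call was lost for KDM1B (-0.14 to -0.11), KDM2A (-0.09 to -0.09), KDM2B (0.10 to 0.11), KDM3B (-0.09 to -0.07), KDM4D (0.31 to 0.43) and SIRT3 (0.15 to 0.18).

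The response to vemurafenib differed between knockout and control cells, by the interaction term of edgeR's quasi-likelihood test, for 27 members. Log2 differences below 0 were those of KDM7A (-0.82), HDAC4 (-0.71), HDAC9 (-0.54), SIRT1 (-0.49), KDM4C (-0.47), HDAC5 (-0.46), SIRT2 (-0.45), SIRT7 (-0.45), KDM6B (-0.42), HDAC1 (-0.35), KDM5A (-0.33), SIRT6 (-0.33), HDAC10 (-0.32), KDM6A (-0.28), HDAC11 (-0.27), KDM4A (-0.26), KDM1B (-0.26), KDM4B (-0.24), KDM5C (-0.24), KDM2A (-0.17) and KDM3B (-0.13). Those above 0 were KDM4D (0.59), KDM1A (0.47), HDAC2 (0.33), HDAC8 (0.17), KDM2B (0.16) and HDAC3 (0.16). Without 1 of the libraries the call was lost for HDAC10 (-0.29 to -0.23) and HDAC8 (0.14 to 0.18).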

How the results depend on the processing

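Over 13 comparisons of 34 members, 442 values were tested and 278 called. Without 1 library 36 of the calls were lost, and under another setting (guides alone left aside) 50 were, while 49 uncalled values became called. KDM5C in control cells in trametinib was the 1 called value that reversed, to 0.11 with library totals alone, and relative to the median of all genes it stayed at -0.14. That scaling moved the median of all genes by 0.19 (trametinib) and 0.16 (vemurafenib) in control cells. Between guides, DESeq2 and the fit of only the groups compared each called 7 members in DMSO, not 4, and in vemurafenib 5 were called with no filter and 4 with only the groups compared, not 8; the cause was not tested.

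Leaving out each library gave 28 to 29 called members for trametinib and 28 to 29 for vemurafenib in control cells, 4 to 6 between the drugs, 27 to 30, 27 to 31 and 25 to 29 for the knockout in DMSO, trametinib and vemurafenib, 28 to 29 and 26 to 29 for the drugs in knockout cells, 20 to 25 and 25 to 28 for the interactions, and 2 to 4, 8 to 10 and 3 to 6 between guides.

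Replicate numbers did not pair the libraries: same-numbered libraries deviated with correlations of -0.164 to 0.167, and 11 of 27 correlated best with their own number. With the replicate number as a block the counts were 29, 28, 7, 29, 30, 26, 28, 26, 25 and 26 in the order above up to the interactions, then 4, 11 and 6 between guides. The block ended the calls of HDAC8 in the vemurafenib interaction (0.16) and of SIRT2 and SIRT5 between guides in vemurafenib.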
